A study of Mus musculus with 16 samples.

Results

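A set of 9 genes that mark transitional and injured lung epithelium was followed across bleomycin injury and silencing of miR-199a-5p in the mouse: Krt8, Krt18, Krt19, Krt7, Cldn4, Sfn, Clu, Areg and Hbegf. They were chosen by symbol, and each was read from its brightest probe, the probe with the highest mean over the 16 arrays. Of the 9 genes, 8 had a named probe and belong to the 20863 genes tested; the probe of Areg is not named in the platform table used, so Areg was not analysed here.

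The arrays measured total RNA of whole lungs of C57BL/6 mice aged 9 to 12 weeks. All animals received, into the trachea, a locked nucleic acid oligonucleotide (LNA) at 5 mg/kg on 3 occasions, 4 days and 2 days ahead of the challenge and 4 days following it. The oligonucleotide was either LNA-miR-199a-5p, which is directed against the microRNA miR-199a-5p and is called the inhibitor here, or LNA-control. The challenge, also intratracheal, was bleomycin at 1 unit/kg, a DNA-damaging drug that injures the alveoli and is a standard means of producing lung fibrosis, or phosphate-buffered saline (PBS). The groups were PBS with LNA-control (3 arrays), PBS with LNA-miR-199a-5p (3 arrays), bleomycin with LNA-control (5 arrays) and bleomycin with LNA-miR-199a-5p (5 arrays). No group was left without an oligonucleotide. The inhibitor was given into the trachea, and which cells it reached was not measured here. The labels give neither the day of collection nor a statement that the replicates are separate animals, so p-values measure the spread between these samples, which may be in part technical. An mRNA array does not read the mature microRNA, so its silencing was not checked here.

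When alveoli are injured, type 2 alveolar cells divide and pass through an intermediate, or transitional, state before they become the flat type 1 cells that exchange gas. Cells in that state are known for simple keratins (Krt8, Krt18, Krt19 and Krt7, which form paired filaments), the barrier claudin Cldn4, the 14-3-3 cell cycle checkpoint protein Sfn, the secreted chaperone Clu and the epidermal growth factor (EGF) receptor ligands Areg and Hbegf. None of these genes belongs to that state alone: simple keratins are present in airway epithelium, Krt19 in mesothelium, and Clu and Hbegf are also made by other lung cells. In whole-lung RNA, fewer cells of a type and less RNA per cell cannot be told apart.

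The oligonucleotide is named for the mature microRNA below, which is shown because every comparison of the inhibitor turns on it. Its seed, bases 2 to 8, is in capitals. RefSeq (GRCm38.p6) places its copies at chr1:162217844-162217866 on the plus strand, in Mir199a-2, and at chr9:21496537-21496559 on the minus strand, in Mir199a-1.
miR-199a-5p: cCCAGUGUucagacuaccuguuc

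The 250 bases upstream of the annotated start are given for 3 members from RefSeq (GRCm38.p6), because Krt8 and Krt18 are neighbours that both rose after bleomycin with LNA-control and Cldn4 had the widest change. Matches to the motifs named below are in capitals. The Cldn4 window is chr5:134946935-134947184 on the minus strand, that of Krt8 chr15:102004343-102004592 on the minus strand and that of Krt18 chr15:102027966-102028215 on the plus strand.
Cldn4: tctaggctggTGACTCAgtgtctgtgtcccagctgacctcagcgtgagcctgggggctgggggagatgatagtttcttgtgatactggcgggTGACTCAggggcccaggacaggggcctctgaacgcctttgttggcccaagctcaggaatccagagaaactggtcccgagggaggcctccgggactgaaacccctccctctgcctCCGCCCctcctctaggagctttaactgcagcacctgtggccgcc
Krt8: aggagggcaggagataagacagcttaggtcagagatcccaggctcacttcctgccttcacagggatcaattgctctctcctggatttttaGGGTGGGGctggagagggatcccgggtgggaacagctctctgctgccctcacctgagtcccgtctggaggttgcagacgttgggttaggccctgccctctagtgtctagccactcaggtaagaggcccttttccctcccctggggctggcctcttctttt
Krt18: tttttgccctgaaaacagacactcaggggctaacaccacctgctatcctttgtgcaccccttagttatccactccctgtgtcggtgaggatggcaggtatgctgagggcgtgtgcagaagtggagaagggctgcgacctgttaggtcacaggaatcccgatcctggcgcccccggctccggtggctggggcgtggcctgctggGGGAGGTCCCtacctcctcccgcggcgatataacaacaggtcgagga

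Of the 9 genes 6 (Krt8, Krt18, Krt7, Cldn4, Sfn and Areg) had such a window, and 14 motifs were searched on both strands in these and in all 32851 windows of the table. Cldn4 held TGACTCA at bases 240 to 234 and again at bases 158 to 152 before its start, both matches to the AP-1 motif TGANTCA. That motif occurred in 6.75% of all windows, and at 2 or more places in 0.338%; none of the other 5 windows held it. The SP motif GGGCGG was in the windows of Cldn4, Krt7 and Areg and in 32.7% of all windows, and the KLF motif CCCCACCC was in that of Krt8 and in 9.05%. Krt18 held a match to the NF-kB motif, as did 17.6% of windows. Areg held the TATA box TATAAA (12.4% of windows) and the cyclic AMP response element TGACGTCA (1.55%). The remaining motifs were in none of the 6 windows: the p53 half-site (7.13% of windows), TEAD GGAATG (12.6%), STAT TTCNNNGAA (7.02%), ETS CCGGAAGT (2.88%), Grainyhead AACCNGGTT (0.24%), SMAD GTCTAGAC (0.167%), C/EBP TTGCGCAA (0.164%) and the SRF motif (0.061%). The capitals in the 3 windows do not overlap each other. A match describes the letters only, and its absence says nothing of the factor.

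The deposited values are log2 intensities that were taken as already quantile normalized. The fit, limma, used 1 model of the 4 group means with Benjamini-Hochberg adjustment over all 20863 genes. A gene was called at an adjusted p under 0.05. The median log2 intensity over all spots lay between 6.15 and 6.16 on every array. The tissue matched its label: the type 2 cell surfactant gene Sftpc read 18.11 to 18.32, at the top of the scale, on all 16 arrays. RNA integrity numbers ran from 7 to 10, with a mean of 9.0 for bleomycin with the inhibitor and 8.2 to 8.33 for the other groups. Transcripts of neighbouring tissue differed between arrays. The thymocyte gene list was raised in bleomycin lungs with LNA-control on replicates 1 and 4 (mean log2 intensity 7.97 and 8.70), and read 5.72 to 6.11 on the other arrays. The squamous epithelium list was lowest on replicate 3 of PBS with the inhibitor (6.52) and of PBS with LNA-control (8.05). The heart muscle and fat lists were higher on every array of bleomycin with the inhibitor (heart 12.72 to 13.54, fat 11.91 to 12.23) than on any array of bleomycin with LNA-control (12.04 to 12.66 and 10.94 to 11.47).

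Bleomycin with LNA-control was compared with PBS with LNA-control to ask how the injury alone changed these genes. Of the 8 measured genes 7 rose, against a background of 9.60% of all genes called higher and 7.90% called lower, and the exception was Krt19. On each of the 8 genes every bleomycin array lay above every PBS array, which held in the higher direction for 13.9% of all genes. The log2 differences ran from 0.26 for Krt19 to 1.62 for Cldn4, with a median of 0.68, where the median over all genes was 0.0035.

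Bleomycin with the inhibitor was compared with bleomycin with LNA-control to ask how silencing changed the injured lung. Of the 8 genes 6 fell (Krt8, Krt18, Krt7, Cldn4, Clu and Hbegf), where 11.4% of all genes were called lower and 13.4% higher, and none rose. The arrays did not overlap for 5 of them (Krt8, Krt18, Cldn4, Clu and Hbegf), which held in the lower direction for 6.46% of all genes. The median log2 difference was -0.60, against 0.0146 over all genes. This comparison and the preceding one share the 5 arrays of bleomycin with LNA-control, so an array value that is high there by chance would enter both. The 6 falls were kept when any 1 array was left out. Heart, fat and endothelial transcripts moved with this comparison: all 8 heart genes, 5 of 10 fat genes and 8 of 9 endothelial genes were called higher with the inhibitor. Summed log2 levels of the heart list were 16.14 to 16.36 and 16.41 to 16.47 in the PBS groups without and with the inhibitor, and 15.67 to 16.28 and 16.25 to 17.04 in the bleomycin groups. Those of the fat list were 15.09 to 16.19 and 14.96 to 17.01 in the PBS groups, and 15.86 to 16.39 and 16.88 to 17.09 in the bleomycin groups. Those of the endothelial list were 18.02 to 18.07 and 17.90 to 18.13 in the PBS groups, and 17.57 to 17.79 and 18.02 to 18.09 in the bleomycin groups, with no gene below the lower quartile of all genes. Of its 9 genes, 6 had fallen after bleomycin with LNA-control, among them the vascular endothelial growth factor receptor gene Kdr by 0.95 on the log2 scale, and 5 were called higher in the interaction. The part of endothelium in the values of the 8 genes was not tested. With the means of the heart and fat lists as covariates, an alternative added after the data were seen, all 6 falls kept their direction but none passed (limma adjusted p from 0.119 for Krt7 to 0.345 for Hbegf), and 143 genes of all those tested were called in place of 5188. Neither of these list means overlapped between the bleomycin groups, so the covariates and the groups are hard to separate in that fit, and their part in the falls was not otherwise tested.

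Bleomycin with the inhibitor was also compared with PBS with the inhibitor, where 2 of the 8 genes passed, Krt8 and Sfn, both higher (7.31% of all genes were called higher and 6.04% lower). The arrays did not overlap for Clu, which lay higher, and for Krt18, which lay lower; over all genes 20.7% did not overlap in either direction. The median log2 difference was 0.19. In PBS lungs the inhibitor gave no call among the 8 genes by limma and 10 calls among all genes (0.0479%). No member reached an unadjusted p under 0.05 there, the smallest being 0.208 for Sfn, and no member's arrays were apart, where 18.1% of all genes had arrays that did not overlap.

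**Figure D1:**
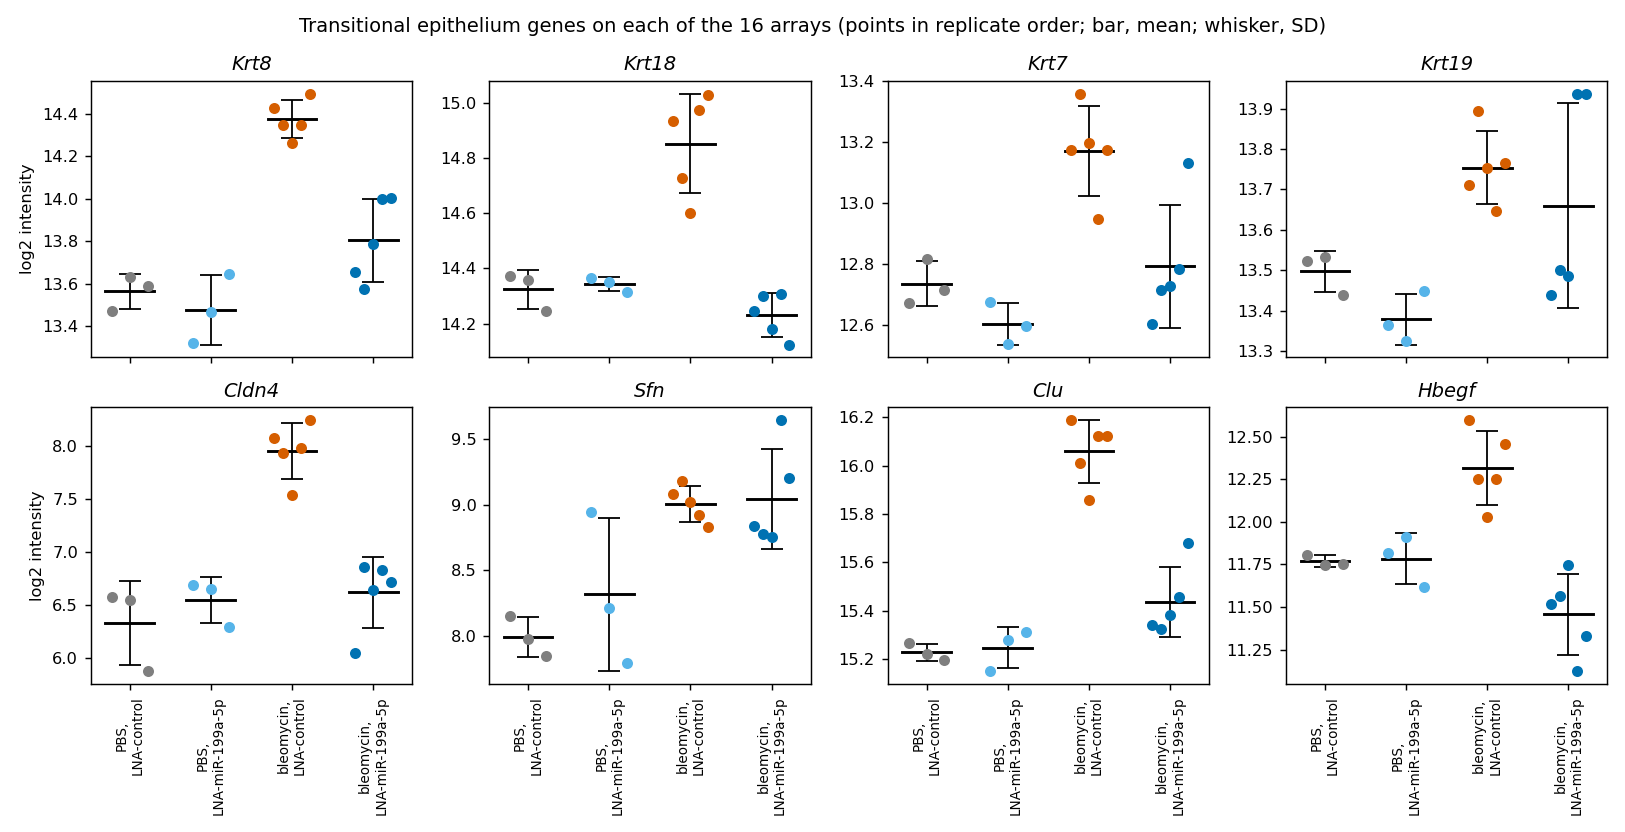
Log2 intensity (vertical axis, a separate range for each gene that does not start at 0) of the 8 measured genes on each of the 16 arrays, by group; points are arrays in replicate order, bars are means and whiskers are SD. For Cldn4 the 5 arrays of bleomycin with LNA-control sit between 7.54 and 8.25, above all other arrays (5.88 to 6.86), whereas for Sfn both bleomycin groups sit high.

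Krt8, the type II keratin by which transitional alveolar cells are most often recognised, lies at chr15:101996711-102004342. It read 13.47, 13.63 and 13.59 (log2 intensity) in PBS lungs with LNA-control and 13.32, 13.47 and 13.65 in those with the inhibitor. After bleomycin it read 14.43, 14.35, 14.26, 14.35 and 14.49 with LNA-control and 13.66, 13.58, 13.79, 13.996 and 14.003 with the inhibitor. The arrays of bleomycin with LNA-control were the highest of all 16, and those of the inhibitor after bleomycin lay lower and overlapped both PBS groups. The log2 difference of bleomycin over PBS was 0.81 ± 0.10 (SE) with LNA-control, 1.75-fold, with a limma adjusted p of 6.05e-05. With the inhibitor that difference was 0.33 ± 0.10 (adjusted p = 0.0496), a rise that just passed. It was lost without replicate 1 or 2 of PBS with the inhibitor (0.25 and 0.32, adjusted p = 0.199 and 0.121), without replicate 3, 4 or 5 of bleomycin with the inhibitor (0.33, 0.28 and 0.28; adjusted p from 0.0683 to 0.107) and with the replicate block (0.25, adjusted p = 0.167). Within bleomycin lungs the inhibitor lowered Krt8 by 1.49-fold (-0.57 ± 0.09, adjusted p = 0.000358).

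A further named probe of Krt8 was read as a check. Its log2 intensity was 11.44 to 11.62 and 11.35 to 11.47 in the PBS groups, 12.01 to 12.59 after bleomycin with LNA-control and 11.50 to 12.22 after bleomycin with the inhibitor. In a limma fit over all 31465 named probes, bleomycin raised it by 0.81 ± 0.15 with LNA-control (adjusted p = 0.00113), and the inhibitor lowered it by -0.50 ± 0.13 after bleomycin (adjusted p = 0.00959). Its difference in the inhibitor arm was 0.42 (adjusted p = 0.0719). The probes thus gave the same direction in these comparisons, and the smaller rise in the inhibitor arm passed on the brighter probe only.

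Krt18 is the type I keratin that pairs with Krt8 in simple epithelia, and its gene is at chr15:102028216-102032026. It lies on the strand opposite to Krt8, with 23873 bases between their annotated starts. Its log2 intensity was 14.37, 14.36 and 14.24 for PBS with LNA-control and 14.36, 14.35 and 14.31 for PBS with the inhibitor. It was 14.93, 14.73, 14.60, 14.97 and 15.03 for bleomycin with LNA-control and 14.25, 14.30, 14.18, 14.31 and 14.12 for bleomycin with the inhibitor. The first of these bleomycin groups stood above all other arrays, and the second lay just below the PBS arrays of its own arm. Bleomycin raised Krt18 by 0.53 ± 0.09 on the log2 scale with LNA-control (1.44-fold, limma adjusted p = 0.000684). The difference in the inhibitor arm was -0.11 ± 0.09 (adjusted p = 0.440). After bleomycin the inhibitor lowered it by 1.54-fold (-0.62 ± 0.08, adjusted p = 5.86e-05). In the inhibitor arm Krt8 was thus narrowly called higher, while Krt18 had a negative difference that did not pass. Whether the genes differed there was not tested.

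Krt7, a type II keratin of glandular and airway epithelium, is on the same chromosome at chr15:101412403-101427806. The PBS arrays read 12.67, 12.82 and 12.72 with LNA-control and 12.67, 12.54 and 12.60 with the inhibitor (log2 intensity). The bleomycin arrays read 13.18, 13.36, 13.20, 12.95 and 13.18 with LNA-control and 12.60, 12.71, 12.73, 12.78 and 13.13 with the inhibitor. Only replicate 5 of the last group reached into the range of bleomycin with LNA-control. Krt7 rose by 0.44 ± 0.11 on the log2 scale after bleomycin with LNA-control (1.35-fold, limma adjusted p = 0.00925). It fell by 1.30-fold with the inhibitor in bleomycin lungs (-0.38 ± 0.09, adjusted p = 0.00768). Bleomycin over PBS in the inhibitor arm gave 0.19 ± 0.11 (adjusted p = 0.252). Without replicate 3 of both PBS groups, which had the least squamous transcript, the rise with LNA-control was 0.43 with an adjusted p of 0.0506.

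Krt19, the smallest of the simple keratins and the partner of Krt7 or Krt8 in many ducts, is at chr11:100140810-100145926. Log2 intensities were 13.52, 13.53 and 13.44 for PBS with LNA-control and 13.36, 13.32 and 13.45 for PBS with the inhibitor. They were 13.71, 13.89, 13.75, 13.65 and 13.76 for bleomycin with LNA-control and 13.44, 13.50, 13.49, 13.94 and 13.94 for bleomycin with the inhibitor. The last group was split: replicates 1 to 3 read at the level of the PBS arrays, and replicates 4 and 5 lay higher, with a gap of 0.44 between these sets. Those replicates were the highest of the 16 arrays, close to replicate 2 of bleomycin with LNA-control (13.89). No comparison of Krt19 passed. Bleomycin over PBS was 0.26 ± 0.11 with LNA-control (95% interval 0.02 to 0.50, limma adjusted p = 0.141) and 0.28 ± 0.11 with the inhibitor (adjusted p = 0.105). The former passed in a fit of the compared groups alone (adjusted p = 0.0408) and with array weights (0.22, adjusted p = 0.0325). The inhibitor against LNA-control in bleomycin lungs gave -0.09 ± 0.10, with a 95% interval of -0.30 to 0.11 (adjusted p = 0.516). Krt19 is also a mesothelial keratin, and the mesothelial list without it moved with these groups: 6 of its 9 genes fell after bleomycin with LNA-control, and 6 were called higher with the inhibitor in bleomycin lungs. Its summed log2 level was 14.42 to 14.53 for PBS with LNA-control, 14.20 to 14.27 for PBS with the inhibitor, 14.28 to 14.45 for bleomycin with LNA-control and 14.46 to 14.75 for bleomycin with the inhibitor, with no gene below the lower quartile in any group. Its part in the values of Krt19 was not tested.

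Beside these 4, 11 other keratins of simple, airway and basal epithelium were measured. After bleomycin with LNA-control 2 rose and 1 fell. Krt17, of basal and wound-edge cells, rose by 1.23 ± 0.36 (limma adjusted p = 0.028) and Krt20, a simple keratin, by 0.59 ± 0.13 (0.0034), while Krt79 fell by 1.33 on the log2 scale (adjusted p = 8.4e-07). With the inhibitor in bleomycin lungs Krt20 fell by 0.53 (adjusted p = 0.0023), whereas Krt79 rose by 1.63 and Krt23 by 0.67. The other 8 did not pass there, but the median of the 11 was 1.10, against 0.0146 over all genes. The direction of that median is opposite to Krt8, Krt18 and Krt7, but Krt17, like Krt20, lay lower (mean 6.73 with LNA-control and 6.01 with the inhibitor). Krt5, Krt14, Krt15 and Krt17 are also basal airway markers, and Krt4, Krt13 and Krt10 are in the squamous list. In PBS lungs with the inhibitor Krt5 and Krt13 had SDs of 3.13 and 5.11. The part of basal and squamous tissue in the median was not tested. Among those not called, the basal keratin Krt5 read 11.16 to 12.23 after bleomycin with LNA-control and 12.44 to 13.53 with the inhibitor. For Krt13 these ranges were 13.03 to 14.48 and 14.74 to 15.73. The squamous keratins Krt13 and Krt4 had differences of 1.01 ± 1.37 and 1.03 ± 1.15 after bleomycin with LNA-control, neither of which passed. Of 11 desmosomal and keratin-linking genes, which anchor keratin filaments at cell junctions, the linker Plec rose (0.34) and the linker Dst fell by 0.38 with LNA-control. With the inhibitor after bleomycin Dsp, Ppl and Dst were higher and none was lower.

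Cldn4 encodes a sealing claudin of tight junctions that limits leak of fluid across the alveolar wall, and lies at chr5:134945123-134946934. In the PBS groups it read 6.58, 6.55 and 5.88 with LNA-control and 6.69, 6.65 and 6.30 with the inhibitor (log2 intensity). In the bleomycin groups it read 8.07, 7.93, 7.54, 7.98 and 8.25 with LNA-control and 6.05, 6.86, 6.64, 6.84 and 6.72 with the inhibitor. All 5 arrays of bleomycin with LNA-control were far above the other 11, which overlapped. The rise was 1.62 ± 0.20 on the log2 scale, or 3.08-fold (limma adjusted p = 4.06e-05), the widest of the 8 genes. In the inhibitor arm bleomycin over PBS was 0.07 ± 0.20, with an adjusted p of 0.844. Within bleomycin lungs the inhibitor lowered Cldn4 by 2.52-fold (-1.33 ± 0.17, adjusted p = 6.99e-05). Its probe was dim outside bleomycin with LNA-control, where the lower quartile of gene means was 5.73, so differences among the other 3 groups are measured near the bottom of the scale. The other named Cldn4 probe gave 1.25 ± 0.18 (adjusted p = 0.000186) and -0.9999 ± 0.16 (adjusted p = 0.000346) for the same comparisons.

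Among 16 other measured tight junction genes the changes went both ways. After bleomycin with LNA-control the pore-forming claudin Cldn2 rose by 0.87 ± 0.12 (limma adjusted p = 8.4e-05) and Marveld3 by 0.42 ± 0.09. Cldn10, a claudin of club cells, fell by 0.80 and the scaffold Tjp1 by 0.42. The other 12 did not pass, among them the alveolar claudin Cldn18 (0.12 ± 0.15) and the occludin gene Ocln (-0.17 ± 0.12). With the inhibitor in bleomycin lungs 5 fell and 2 rose: Cldn2 by 0.60, Cldn18 by 0.63, Cldn7 by 0.33, Marveld3 by 0.23 and Cgn by 0.22 on the log2 scale were lower, and Cldn10 (0.54) and Marveld2 (0.26) higher. The median log2 difference of the 16 genes was -0.0091 after bleomycin with LNA-control, against 1.62 for Cldn4.

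Sfn encodes 14-3-3 sigma, an epithelial protein that p53 induces and that holds damaged cells in G2, and lies at chr4:133600556-133602168. Log2 intensities in PBS lungs were 8.15, 7.98 and 7.85 with LNA-control and 8.94, 8.21 and 7.79 with the inhibitor. In bleomycin lungs they were 9.08, 9.18, 9.02, 8.92 and 8.83 with LNA-control and 8.84, 8.78, 8.75, 9.65 and 9.20 with the inhibitor. The bleomycin groups overlapped: with the inhibitor, replicates 2 and 3 lay below the range with LNA-control, replicates 4 and 5 above it and replicate 1 just inside it. Replicate 1 of PBS with the inhibitor also lay inside that range. Sfn rose by 1.02 ± 0.22 after bleomycin with LNA-control (2.02-fold, limma adjusted p = 0.00385) and by 0.73 ± 0.22 with the inhibitor (adjusted p = 0.0396). The inhibitor against LNA-control after bleomycin gave 0.04 ± 0.19 (95% interval -0.37 to 0.44, adjusted p = 0.913). Squamous transcripts, from an epithelium that also makes Sfn, moved with its values in PBS lungs given the inhibitor: the mean log2 intensity of the 18 squamous genes was 9.74, 9.23 and 6.52 on replicates 1 to 3. The summed level of the list ran from 14.04 to 16.02 for PBS with LNA-control, 11.85 to 17.19 for PBS with the inhibitor, 15.49 to 16.73 for bleomycin with LNA-control and 16.75 to 17.68 for bleomycin with the inhibitor. From 2 to 4 of its genes had a group mean below the lower quartile of all genes, and none was called after bleomycin with LNA-control. With the list mean as a covariate, Sfn kept its rise with LNA-control but gave 0.38 in the inhibitor arm (adjusted p = 0.242). The latter call was also lost without replicate 3 (0.47, adjusted p = 0.194) or 2 (0.68, 0.118) of PBS with the inhibitor, without replicate 4 (0.58, 0.0764) or 5 (0.69, 0.0818) of bleomycin with the inhibitor, and with the replicate block (0.65, adjusted p = 0.108).

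Other 14-3-3 genes and p53 targets were read beside Sfn. Of the 6 other 14-3-3 genes, Ywhag rose after bleomycin with LNA-control (0.36) and none passed with the inhibitor in bleomycin lungs. Of 17 measured p53 target genes, 10 rose after bleomycin with LNA-control and none fell, with a median log2 difference of 0.53. The stress cytokine Gdf15 rose by 2.86 ± 0.12 (limma adjusted p = 4.7e-10), Ccng1 by 1.37 ± 0.10, Phlda3 by 1.26 ± 0.10 and the splicing regulator Zmat3 by 0.95 ± 0.08. With the inhibitor in bleomycin lungs 12 of the 17 fell and Sesn1 rose: Gdf15 by 1.92, Ccng1 by 1.28 and the cell cycle inhibitor Cdkn1a by 0.77 on the log2 scale were lower. Sfn, itself a p53 target, differed by 0.04 in that comparison.

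Clu encodes clusterin, an extracellular chaperone that is abundant in injured epithelium and in other lung cells, and lies at chr14:65968483-65981548. It read 15.27, 15.22 and 15.20 (log2 intensity) for PBS with LNA-control and 15.15, 15.28 and 15.31 for PBS with the inhibitor. After bleomycin the values were 16.19, 16.01, 15.86, 16.12 and 16.12 with LNA-control and 15.34, 15.33, 15.38, 15.46 and 15.68 with the inhibitor. The arrays of bleomycin with LNA-control were highest, those of bleomycin with the inhibitor lay just above the PBS arrays, and none of these 3 levels overlapped. Clu rose by 0.83 ± 0.09 with LNA-control (1.78-fold, limma adjusted p = 1.28e-05). In the inhibitor arm the difference was 0.19 ± 0.09 (adjusted p = 0.172). The inhibitor lowered Clu by 1.54-fold in bleomycin lungs (-0.62 ± 0.08, adjusted p = 5.86e-05).

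Hbegf encodes heparin-binding EGF-like growth factor, a membrane-anchored ligand that is shed from epithelium and macrophages and signals through the EGF receptor. Its log2 intensity was 11.81, 11.75 and 11.75 for PBS with LNA-control and 11.82, 11.91 and 11.62 for PBS with the inhibitor. It was 12.60, 12.25, 12.03, 12.25 and 12.45 for bleomycin with LNA-control and 11.52, 11.57, 11.74, 11.12 and 11.33 for bleomycin with the inhibitor. Bleomycin with LNA-control stood above all other arrays, and 4 of the 5 arrays of bleomycin with the inhibitor lay below every PBS array. Hbegf rose by 0.55 ± 0.13 with LNA-control (1.46-fold, limma adjusted p = 0.00865), and with fat and heart covariates this was 0.29 (adjusted p = 0.183). Bleomycin over PBS in the inhibitor arm was -0.33 ± 0.13 (adjusted p = 0.113). The inhibitor lowered Hbegf by 1.82-fold in bleomycin lungs (-0.86 ± 0.12, adjusted p = 9.95e-05).

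Of 15 other genes of the EGF receptor family and its sheddases, few changed after bleomycin with LNA-control. The ligand Ereg rose by 1.80 ± 0.34 (limma adjusted p = 0.0015), the ErbB3 and ErbB4 ligand Nrg1 by 0.87 ± 0.09 (1.1e-05) and Rhbdf2, which brings the sheddase Adam17 to the cell surface, by 0.44 ± 0.12 (0.016). The feedback inhibitor Errfi1 fell by 0.49. The receptor Egfr (-0.16 ± 0.10), Erbb2 (0.01 ± 0.09) and Adam17 (0.21 ± 0.09) did not pass. With the inhibitor in bleomycin lungs Nrg1 fell by 1.18, the ligand Epgn by 0.55 and the sheddase Adam10 by 0.37 on the log2 scale, while the ligand Tgfa (0.36), the receptor Erbb4 (0.39), Errfi1 (0.53) and the negative regulator Lrig1 (0.23) were higher. Ereg differed by -0.59 ± 0.30 there (adjusted p = 0.16).

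The interaction term set the bleomycin effect of the inhibitor arm against that of the LNA-control arm. It was lower in the inhibitor arm for 4 of the 8 genes, where 3.94% of all genes were called lower and 3.07% higher. The differences were -1.55 ± 0.28 for Cldn4 (limma adjusted p = 0.00489), -0.87 ± 0.19 for Hbegf (0.0125), -0.64 ± 0.13 for Krt18 (0.00807) and -0.64 ± 0.13 for Clu (0.00805). Krt8 had -0.49 ± 0.15 (adjusted p = 0.0591), which passed without replicate 3 of bleomycin with LNA-control (-0.51, 0.0418) or without replicate 4 (-0.53, 0.0426) or 5 (-0.53, 0.0392) of bleomycin with the inhibitor. Krt7 (-0.25 ± 0.15), Sfn (-0.29 ± 0.31) and Krt19 (0.02 ± 0.16) did not pass. A rise with LNA-control that did not pass in the inhibitor arm, as for Krt7, is therefore not shown to differ between the arms. Without replicate 3 of both PBS groups, the adjusted p was 0.0516 for Krt18 and 0.0607 for Clu, which left 2 calls. With fat and heart covariates none of the 4 passed (adjusted p from 0.0569 for Cldn4 to 0.230 for Hbegf), and all 4 kept a negative difference.

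**Figure D2:**
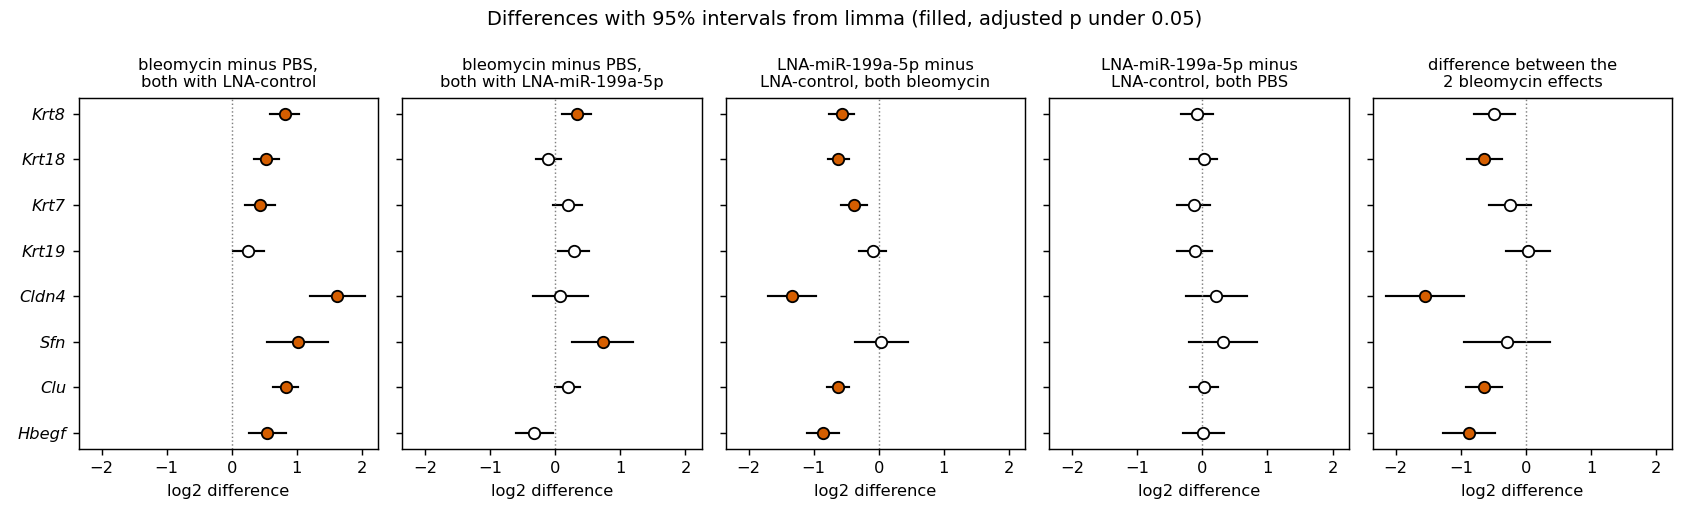
Log2 differences (horizontal axis) with 95% intervals from limma for the 8 genes in the 5 comparisons; filled points passed an adjusted p of 0.05. In the left panel 7 points are filled and all lie above 0, and in the middle panel 6 are filled and lie below 0, with Krt19 (-0.09) and Sfn (0.04) near 0.

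Levels did not move uniformly within bleomycin with the inhibitor. Replicates 4 and 5 both lay above replicates 1 to 3 for 5 of the 8 genes (Krt8, Krt19, Krt7, Sfn and Clu), as they did for 22.9% of all genes. Krt18, Cldn4 and Hbegf did not show this, and for Hbegf replicates 4 and 5 were the lowest, as for 19.0% of all genes. RNA integrity was 9 and 10 on those replicates and 8, 9 and 9 on replicates 1 to 3. Replicate 4 also had the highest squamous list mean of the group (9.96), and replicate 5 the lowest (9.41). These values are given as a description, and the part of any of them was not tested.

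General epithelial markers moved less than the transitional genes after bleomycin with LNA-control and between the bleomycin groups. Of 14 genes of epithelium of any kind 4 rose and 1 fell after bleomycin with LNA-control, with a median log2 difference of 0.15; the membrane protease gene St14 rose by 0.59 and the splicing factor gene Esrp2 by 0.51. The adhesion genes Epcam (0.11 ± 0.10) and Cdh1 (0.02 ± 0.08) did not pass. With the inhibitor in bleomycin lungs 3 of the 14 fell and none rose, with Epcam at -0.08 ± 0.08 and Cdh1 at -0.04 ± 0.07. After bleomycin in the inhibitor arm 4 of the 14 rose and 1 fell. Their median log2 difference there was 0.15, close to the 0.19 of the 8 genes. Of 12 type 2 cell genes 1 rose and 2 fell after bleomycin with LNA-control, the phosphate transporter gene Slc34a2 by 0.42 on the log2 scale and Etv5 by 0.34 being the lower ones. Of 11 type 1 cell genes 2 rose and 4 fell, among the latter Cav1 by 0.58 and Hopx by 0.51, and with the inhibitor after bleomycin 6 were higher and 1 lower. Sftpc was at the top of the scale and cannot show a rise. Airway lists were read too. Of 11 club and secretory genes 1 rose and 3 fell after bleomycin with LNA-control, and 5 were higher and none lower with the inhibitor after bleomycin. The club list mean was 14.49 to 14.85 in bleomycin lungs with LNA-control and 14.95 to 15.15 with the inhibitor. For the 9 basal genes these ranges were 9.70 to 10.11 and 10.18 to 10.56, with 1 gene called higher and 1 lower. The part of airway cells in the members' values was not tested.

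Macrophages share Clu and Hbegf with epithelium, and most of their measured genes moved in the direction of these members. Of 15 measured, 12 rose after bleomycin with LNA-control, and 12 fell and 1 rose with the inhibitor in bleomycin lungs. After bleomycin in the inhibitor arm 6 rose and 9 did not pass. The lipid sensor gene Trem2 rose by 3.47 ± 0.10 and fell by 2.31 in these comparisons, and the osteopontin gene Spp1 rose by 3.78 ± 0.22 and fell by 3.49. The summed log2 level of the list was 16.66 to 16.71 for PBS with LNA-control, 16.71 to 16.85 for PBS with the inhibitor, 17.10 to 17.38 for bleomycin with LNA-control and 16.76 to 17.56 for bleomycin with the inhibitor. The bleomycin groups overlapped in this sum, in which the brightest gene, Chil3, averaged 15.99 with LNA-control and 16.42 with the inhibitor. The list means of these groups did not overlap (11.76 to 12.21 with LNA-control and 10.93 to 11.10 with the inhibitor). No gene of the list had a group mean below the lower quartile of all genes. The part of macrophages in the values of Clu and Hbegf was not tested.

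**Figure D3:**
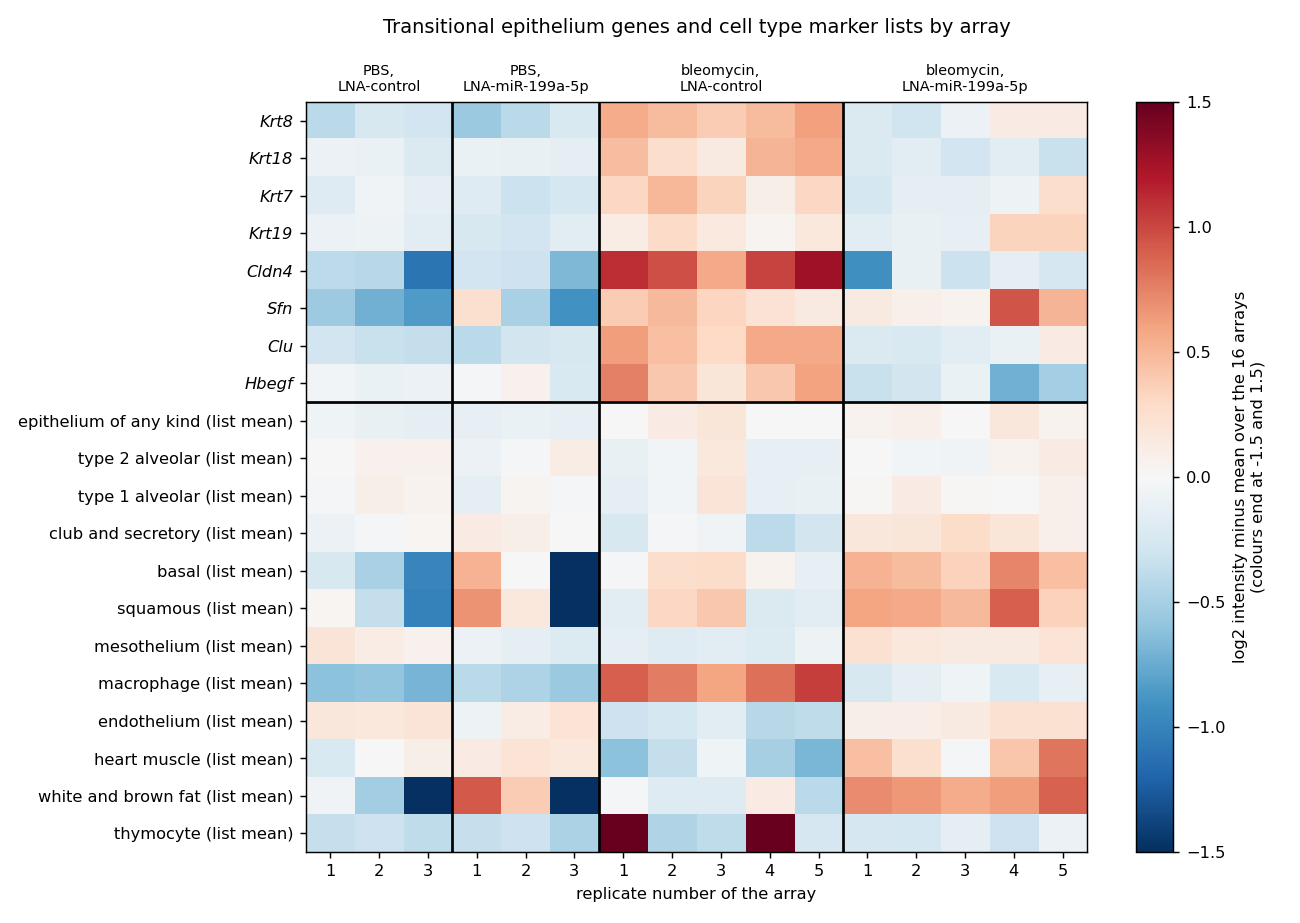
Log2 intensity minus the mean over the 16 arrays (colour, which ends at -1.5 and 1.5) for the 8 genes and, under the black line, for the means of cell type marker lists; columns are arrays by group and replicate. The 5 columns of bleomycin with LNA-control are above the mean for all 8 genes and for the macrophage list, while the squamous list is darkest blue on replicate 3 of PBS with the inhibitor (mean log2 intensity 6.52).

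A wider list of 26 genes known from transitional alveolar cells, none of them among the 9, showed how far the same direction extended. It shares genes with other lists here: Cdkn1a with the p53 targets, Nrg1 with the EGF receptor family and Krt20 with the other keratins. Hopx is also in the type 1 list and Msln in the mesothelial list. Of the 23 measured, 14 rose after bleomycin with LNA-control, 1 fell and 8 did not pass, with a median log2 difference of 0.45. The cell cycle inhibitor Cdkn1a rose by 1.89 ± 0.22 (limma adjusted p = 1.9e-05), the growth factor Mdk by 1.06 ± 0.14 (9.7e-05), the galectin Lgals3 by 0.87 ± 0.09 (8.1e-06), the phospholipid-binding Anxa1 by 0.79 ± 0.10 (7.2e-05) and the laminin chain Lamb3 by 0.60 ± 0.07 (2.2e-05). The gene that fell was Hopx, which is best known from type 1 cells. With the inhibitor in bleomycin lungs 16 of the 23 fell and Hopx rose, with a median of -0.53; Nrg1 (-1.18 ± 0.08), Lamb3 (-0.72 ± 0.06) and the integrin chain Itgb6 (-0.73 ± 0.12) were among the lower ones. In the inhibitor arm 2 of the 23 rose after bleomycin, the urokinase receptor gene Plaur (0.48 ± 0.11, adjusted p = 0.015) and Msln (0.51 ± 0.11, 0.011), a mesothelial gene. The interaction was called lower for 10 and higher for 1. Plaur, like Sfn, was higher after bleomycin in both arms and gave no call between the bleomycin groups (0.11 ± 0.10, adjusted p = 0.42). Most of the macrophage list moved in the same directions as most of this wider list. The part of macrophages or other cells in the values of the wider list was not tested.

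**Figure D4:**
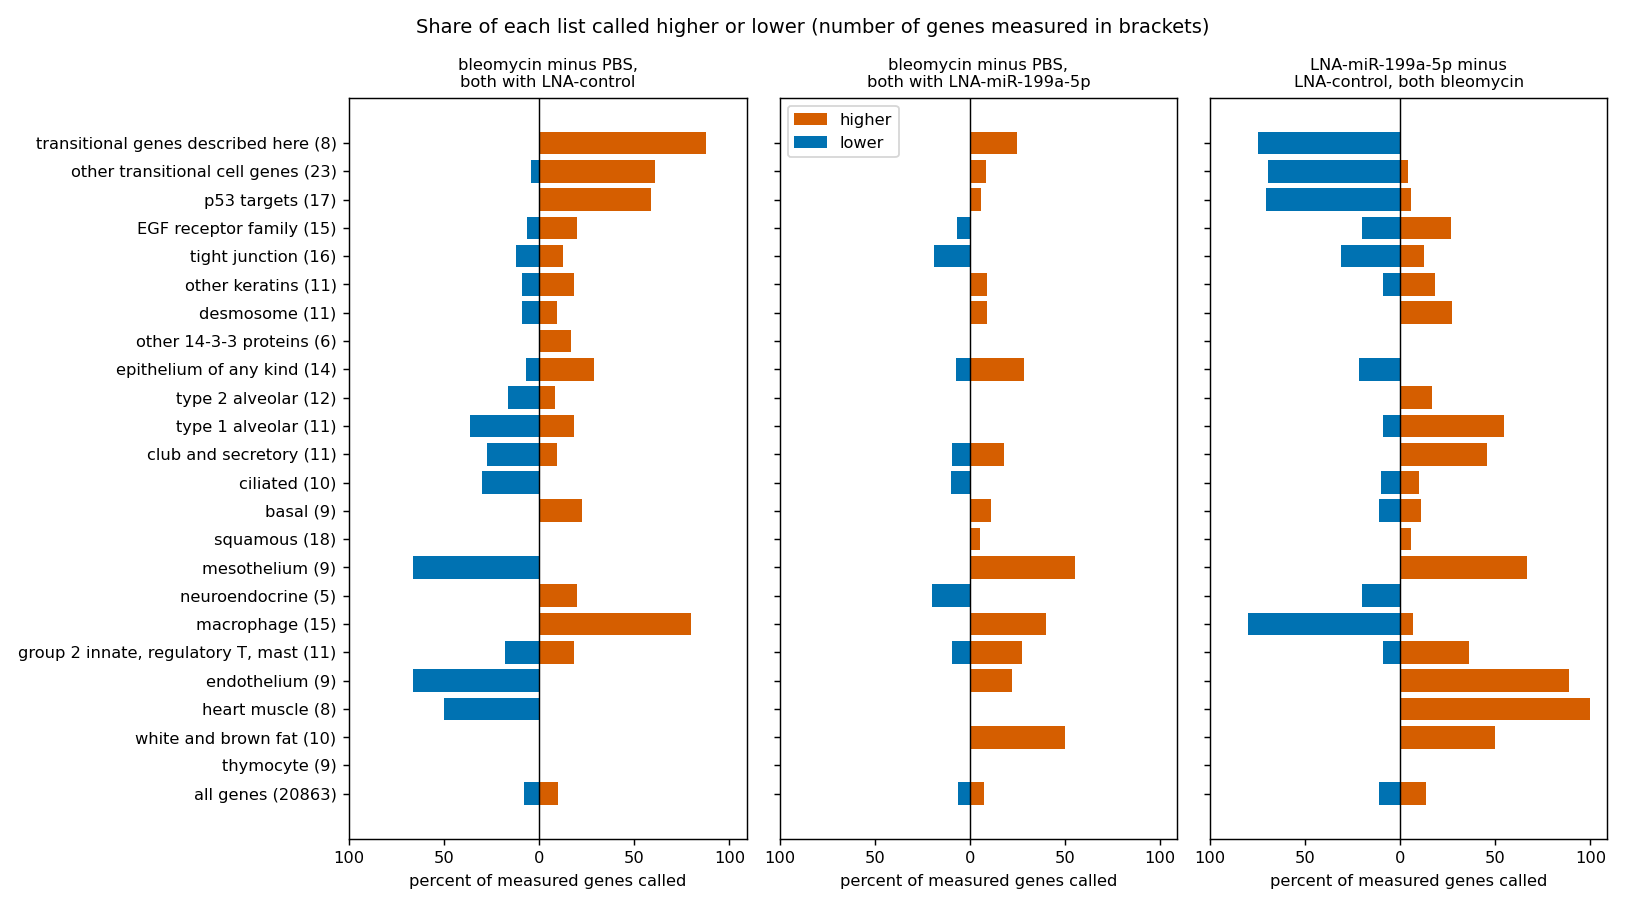
Percent of the measured genes of each list called higher (to the right of 0) or lower (to the left) in 3 comparisons, with the share over all 20863 genes at the bottom. Some genes are in several lists. The 8 genes, the other transitional cell genes, the p53 targets and the macrophage list reach to the right in the left panel (7 of 8, 14 of 23, 10 of 17 and 12 of 15 genes) and to the left in the right panel (6 of 8, 16 of 23, 12 of 17 and 12 of 15), whereas the endothelial list reaches the opposite way (6 and 8 of 9).

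Likeness of pattern was measured for each gene as the root mean square difference over the 16 arrays after both genes were centred on their means, and is a description with no test. Krt8 was nearest to Clu (0.097 on the log2 scale), followed by the formin gene Inf2 (0.10) and the endocytic receptor gene Lrp2 (0.105). Clu in turn was nearest to Gusb (0.088), Lrp2 (0.089) and Krt8. Krt18 was nearest to Poc1a (0.071), the cadherin gene Fat1 (0.073) and the tetraspanin gene Cd63 (0.074), and Krt8 was not among its 3. Krt7 was nearest to Lilra6 (0.079), Alox5ap (0.094) and Lama2 (0.096), of which Lilra6 and Alox5ap are leukocyte genes. Krt19 was nearest to Pde1b (0.070), Fbxw4 (0.070) and Bhlhe41 (0.071), but its own SD over the arrays was only 0.20. Hbegf was nearest to Rnf149 (0.10), Snx7 (0.121) and Fndc3b (0.122). Cldn4 was nearest to the growth factor gene Igf1 (0.216) and to Cpxm1 (0.223), and Sfn to Cav3 (0.209) and Wnt7b (0.218). These distances were wider than those of the other members, as were the SDs of Cldn4 and Sfn (0.745 and 0.542).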

How the data were processed

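Total RNA of whole lung (0.2 ug, labelled with Cy3) was hybridised to 1-colour Agilent arrays, per the labels' protocols. The deposited table holds log2 intensity values of 62976 spots on 16 arrays. The authors prepared them with limma, per the submitters' processing notes, which give no version. Sorted values of the arrays lay within 0.0974 of each other, so the deposited log2 values were taken as quantile normalized and were not scaled again. Background correction and filters are not given in the sources used here. Arrays of a group correlated at 0.989 or more.

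Of 31465 probes with a gene name, 29036 were matched to RefSeq, which changed 2933 symbols. The brightest probe over all arrays was kept for the 6086 genes with several, which gave 20863 genes and no further filter. Samples were grouped by their titles. limma 3.58.1 (R 4.3.3) fitted 1 model of the 4 group means to the 16 arrays with lmFit and eBayes, with 5 two-sided contrasts. It was tested on simulated data. An array gives no read depth, and precision is limited by how many arrays there were.

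The members, gene lists and marker lists were chosen with earlier results of these data known. From each list up to 4 genes were named by the smallest p for bleomycin with LNA-control and up to 2 by the smallest p for the inhibitor in bleomycin lungs, with others singled out after their values were seen because a list turns on them; only part of the genes so given are named. A list's summed level is the log2 of its summed linear intensities. Samples of the PBS groups with the same replicate number deviated together over all genes (correlations 0.411, 0.108 and 0.497). The titles only number the replicates and state no pairing, and the main fit used none. Squamous list means also fell from replicate 1 to 3 with LNA-control (9.10, 8.71 and 8.05) and with the inhibitor (9.74, 9.23 and 6.52). A pairing and a like content of neighbouring tissue cannot be told apart here. In the other comparisons at least 1 pair was under 0.1. The alternatives were the mean of all probes, dim genes left out, quantile normalization again, array weights, a trended and robust prior, only the groups compared, RNA integrity, the replicate block, squamous, and fat and heart, covariates, and arrays left out.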

Additional observations from a re-analysis of the deposited data

Results flagged for a closer look

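In bleomycin with LNA-miR-199a-5p the lowest array of Cldn4, replicate 1, read 6.05 (log2 intensity) and lay far from the other 4, which read 6.64 to 6.86. Chance marks about 1 in 20 such groups, and 16 groups of 5 arrays were examined. By the interaction term, 4 genes answered bleomycin differently in the LNA arms: Cldn4 (-1.55), Hbegf (-0.87), Clu (-0.64) and Krt18 (-0.64), each given as the log2 effect with LNA-miR-199a-5p minus that with LNA-control.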

How the results depend on the processing

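The counts of members called stayed between 6 and 8 for bleomycin with LNA-control, and at 0 for the inhibitor in PBS lungs, under every alternative. For the inhibitor in bleomycin lungs the count was 6 except with fat and heart covariates, where it was 0. For the interaction, main count 4, it was 2 without the third array of both PBS groups, 0 with fat and heart covariates, and 4 to 5 otherwise, also with 1 array left out. For bleomycin with the inhibitor, main count 2, it was 1 with quantile normalization again, array weights or the squamous covariate, and 0 with only the groups compared, the RNA integrity covariate, the replicate block, fat and heart covariates or without the third array of both PBS groups; with 1 array left out it ran from 0 to 2. The replicate block changed no other count, which was 7, 6, 0 and 4 in the other comparisons. The covariates and the block leave fewer residual degrees of freedom; beyond that the cause was not tested.

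Differences that changed sign were called in neither setting. Cldn4 for bleomycin with the inhibitor was -0.0452 with array weights, -0.0316 with the replicate block, -0.0776 with the squamous covariate, -0.051 without the third array of both PBS groups, and -0.051 to 0.2164 with 1 array left out. Sfn for the inhibitor in bleomycin lungs was -0.0636 with array weights, -0.1305 with the squamous covariate, -0.531 with fat and heart covariates and -0.1141 to 0.1092 with 1 array left out. For the inhibitor in PBS lungs Krt18 was -0.0221 with quantile normalization again and -0.0083 without the third array of both PBS groups, where Clu was -0.0302. With 1 array left out these ran from -0.0225 to 0.041 for Krt18 and -0.0138 to 0.0671 for Clu, and Cldn4 from -0.0149 to 0.337 and Hbegf from -0.0513 to 0.0951. The interaction of Krt19 was -8e-04 with quantile normalization again, -0.0131 with array weights, -0.0456 with RNA integrity, -0.0254 without the arrays rich in thymocyte transcripts, -0.1739 with fat and heart covariates and -0.0447 to 0.0803 with 1 array left out. That of Sfn ran from -0.5494 to 0.0276 with 1 array left out. Over the members' other differences, 768 kept direction and side of the threshold, 37 lost the call and 8 gained it.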
